A study of Mus musculus with 2 samples.

Results

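Sinusoidal endothelial cells of the mouse liver that carried Esm1 or Selp transcripts were taken from 2 single-cell RNA-seq libraries, 1 from a liver with a partially ligated inferior vena cava (pIVCL) and 1 from a Control liver. A barcode was called sinusoidal when it held at least 3 UMIs (distinct RNA molecules) of Stab2, Clec4g, Dnase1l3, Oit3 and Gpr182 together. It also needed more of these than of the large-vessel genes Vwf, Ly6a and Ly6c1, and at most 1 UMI of Ptprc, Cd3e, Cd79a and Clec4f. Sinusoidal barcodes with at least 2 UMIs of Esm1 and Selp together are called Esm1/Selp-positive, and the rest are called the other sinusoidal barcodes. The barcodes were thus selected on their UMI counts of these genes. There were 269 Esm1/Selp-positive barcodes among 493 sinusoidal barcodes in pIVCL and 25 among 1100 in Control, of 8172 barcodes kept in all. Both samples came from C57BL/6 mice. One protocol text is given for both, with ligation at 8 to 10 weeks of age and collection 6 weeks later, so the grouping rests on the genotype label and title. The labels do not say whether the Control animal had a sham operation or how many animals went into each library. Hepatocytes and non-parenchymal cells were mixed before capture.

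Liver sinusoidal endothelial cells line the hepatic capillaries. They lack a continuous basement membrane, clear waste molecules through scavenger receptors such as Stab2 and Stab1, and release factors that pattern hepatocytes along the lobule. Cells near the central vein are known for Wnt2, Wnt9b and the Wnt enhancer Rspo3, and cells near the portal vein for Dll4 and Efnb2. Esm1 encodes endocan, a secreted proteoglycan of activated and sprouting (tip) endothelium. Selp encodes P-selectin, which endothelium and platelets display to catch rolling leukocytes. Resting sinusoids are known to carry little P-selectin. Ligation of the vein above the liver slows blood outflow and congests the sinusoids.

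The 250 bases before each annotated start are shown for the 2 genes that define the barcodes. The sequences are from RefSeq (GRCm38.p6), and both genes lie on the plus strand. The Esm1 window is chr13:113209409-113209658, directly before a protein-coding gene that GENCODE M21 places at chr13:113209659-113218098. The Selp window is chr1:164115014-164115263, before a protein-coding gene at chr1:164115264-164150026. Capitals mark the only match to 4 motifs searched on both strands.

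Esm1: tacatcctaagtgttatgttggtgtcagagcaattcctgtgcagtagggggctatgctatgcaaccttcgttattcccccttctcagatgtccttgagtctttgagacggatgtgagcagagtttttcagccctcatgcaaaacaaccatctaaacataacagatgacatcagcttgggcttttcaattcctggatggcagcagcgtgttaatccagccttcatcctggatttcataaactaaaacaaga

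Selp: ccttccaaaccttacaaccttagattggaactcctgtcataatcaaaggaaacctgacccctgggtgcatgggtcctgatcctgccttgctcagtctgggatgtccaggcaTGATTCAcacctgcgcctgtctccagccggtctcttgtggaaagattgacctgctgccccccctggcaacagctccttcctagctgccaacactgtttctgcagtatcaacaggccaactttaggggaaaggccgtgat

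The capitals in the Selp window match the AP-1 letters TGANTCA at positions -139 to -133 from the start, where the letters match on both strands. This motif occurred in 6.75% of 32851 RefSeq windows of the same length. Neither window held the TEAD letters GGAATG, the GATA letters AGATAA or the ETS letters CCGGAAG, which occurred in 12.6%, 9.99% and 6.91% of windows. These are letter matches only.

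The pIVCL library was shallower than the Control library. Esm1/Selp-positive barcodes held a median of 3811 UMIs in pIVCL and 8504 in Control, and other sinusoidal barcodes 2896.5 and 6933, so each gene's UMIs were summed over a group and scaled to that group's total (CPM). The deposited files shared 13 barcodes, none of them sinusoidal in both libraries. With 1 library per group no test between conditions exists, there is no replicate check, and a difference compares these libraries. Intervals in parentheses are 95% and cover counting error only. RNA of hepatocytes was unevenly spread: a list of 14 hepatocyte genes made up 42190 CPM of the other pIVCL barcodes, 14264 CPM of the Esm1/Selp-positive pIVCL barcodes, 19237 CPM of the other Control barcodes and 5543 CPM of the Esm1/Selp-positive Control barcodes.

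Esm1/Selp-positive barcodes were 54.6% of sinusoidal barcodes in pIVCL (50.1% to 59.0%, exact binomial) and 2.27% in Control (1.48% to 3.34%). The rule used these counts, so the shares describe how the barcodes were chosen. After every barcode was thinned to 1000 UMIs, which left out 23 pIVCL and 100 Control barcodes, at least 1 Esm1 or Selp UMI remained in 46.4% of pIVCL (218 of 470) and 1.2% of Control sinusoidal barcodes (12 of 1000). The library with fewer Esm1/Selp-positive barcodes was thus the deeper one.

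**Figure D1:**
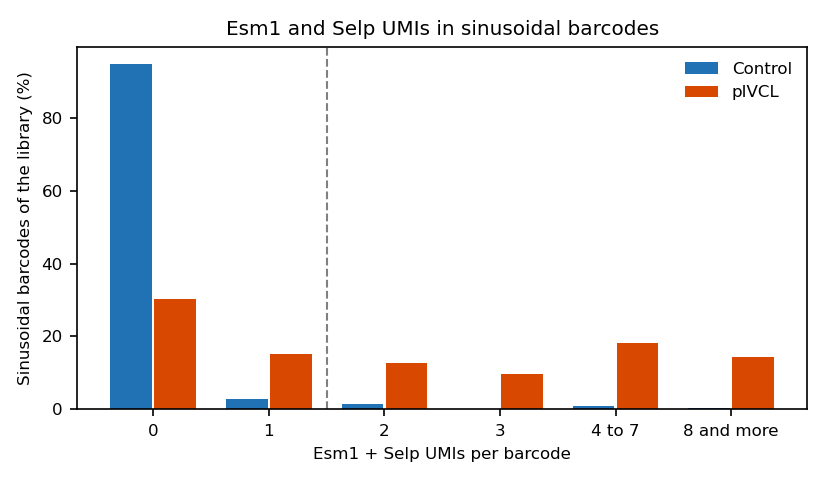
Share of sinusoidal barcodes of each library (%, vertical axis) by their number of Esm1 and Selp UMIs (horizontal axis), with the dashed line at the rule's threshold. Control barcodes pile up at 0 (1043 of 1100), while pIVCL barcodes spread out to 71 with 8 or more.

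The counts were graded and had no gap at the threshold. In pIVCL 149 barcodes held 0 UMIs of the pair, 75 held 1, 62 held 2, 47 held 3, 89 held 4 to 7 and 71 held 8 or more, up to 33. Just inside the threshold the summed Esm1 and Selp level was 457 CPM, and just outside it was 218 CPM. In Control 32 barcodes held 1 UMI and 15 held 2, at 147 and 203 CPM, and the highest held 9.

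Esm1 stood at 884 CPM in Esm1/Selp-positive pIVCL barcodes (833 to 938), 44.3 in the other pIVCL barcodes, 50.1 in Esm1/Selp-positive Control barcodes and 2.74 in the other Control barcodes. Selp stood at 479 CPM (441 to 519), 40.9, 305 and 1.64 in the same order. Of the 1326 Esm1 UMIs in kept pIVCL barcodes, 82.4% lay in the Esm1/Selp-positive barcodes, and of 1010 Selp UMIs 58.5%. A further 11.7% and 23.3% lay in 112 barcodes that failed only the leukocyte limit. Barcodes of other cells in pIVCL, thinned to 1000 UMIs, differed in their shares with Esm1 or Selp. Hepatocyte barcodes (median 3151 UMIs before thinning) held Esm1 in 0.0842% (1 of 1188) and Selp in 0 of 1188, and B cell barcodes (median 1878) in 0 and 3 of 916. Macrophage barcodes (median 1211) held each gene in 1.24%, T or NK cell barcodes (median 2687) in 2.41% and 2.68%, and stellate cell barcodes (median 4555) in 3.90% and 2.60%. The shares in T or NK and stellate cell barcodes were near those of the other sinusoidal barcodes, 2.97% and 3.96% (median 2896.5). The rule limits the other sinusoidal barcodes to 1 UMI of the pair, so their shares were held down by the rule. Shares of that size cannot be read as expression. Esm1/Selp-positive barcodes, which were chosen on the pair, held Esm1 in 54.5% and Selp in 30.6%. Barcodes gated as large-vessel endothelium held no Esm1 UMI in either library (68 Control and 15 pIVCL barcodes). They held Selp at 155 CPM in Control and 741 CPM in pIVCL, where 24 of the 45 Selp UMIs lay in 1 barcode. Esm1 UMIs were thus seen in sinusoidal and not in these few large-vessel barcodes, while Selp was seen in both.

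Of the label's 4 markers, Esm1, Selp and Stab2 were used to choose the barcodes, so only the hyaluronan receptor Lyve1 checks the label. In pIVCL Lyve1 stood at 2872 CPM, with a UMI in 257 of the 269 Esm1/Selp-positive barcodes. The other pIVCL barcodes held Lyve1 at 1739 CPM, with a UMI in 189 of 224, so this marker was common to both pIVCL groups. In Esm1/Selp-positive Control barcodes Lyve1 stood at 146 CPM, below the 422 CPM of the other Control barcodes. Of the 25 Esm1/Selp-positive Control barcodes, the 19 with Selp alone held Lyve1 in only 2, so the label is not met there by this marker. Markers of other cells were present to different degrees in the Esm1/Selp-positive pIVCL barcodes. The platelet list, which matters because platelets store P-selectin, summed to 13 CPM with 6 of 9 genes at 0, and the Kupffer cell list to 101 CPM with none at 0. The leukocyte list summed to 304 CPM, against 156 CPM in the other pIVCL barcodes. The stellate cell list summed to 976 CPM against 691.5 CPM, with 8 of 9 measured genes higher (median log2 ratio 0.38), and to 1607 CPM in barcodes with 8 or more UMIs of the pair. The hepatocyte list, at 14264 CPM, was the highest of these. The part of these cells in the results was not tested. Of 146 UMIs of the neutrophil granule gene Mpo, 98.6% came from 1 barcode.

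The pair split the barcodes differently in the 2 libraries. In pIVCL 119 Esm1/Selp-positive barcodes held Esm1 only, 52 Selp only and 98 both. In Control 6 held Esm1 only, 19 Selp only and none both. In pIVCL sinusoidal barcodes thinned to 1000 UMIs, Esm1 appeared in 26.7% of those with Selp (17.9% to 37.0%) and in 33.7% of those without (28.9% to 38.7%). These intervals overlap, so the pair showed no excess of shared barcodes at this depth.

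**Figure D2:**
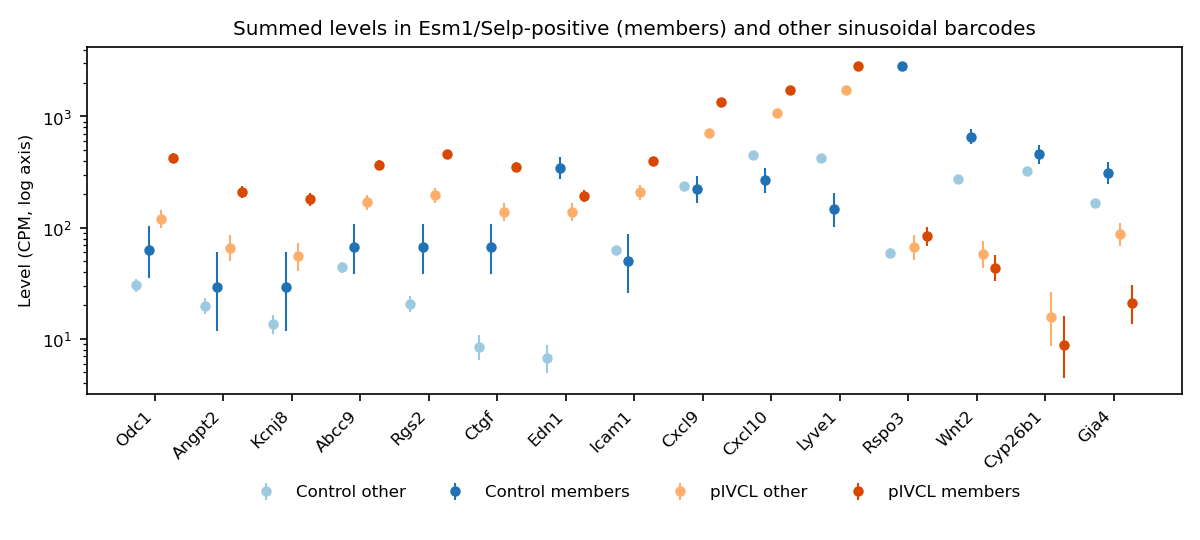
Level of 15 genes (CPM, log axis) in Esm1/Selp-positive (members) and other sinusoidal barcodes of each library, with points for summed levels and bars for exact 95% Poisson intervals. Odc1, Angpt2 and Kcnj8 are highest in the pIVCL members, Lyve1 is high in both pIVCL groups, and Rspo3 stands at 2820 CPM in the Control members alone.

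The other Control sinusoidal barcodes were taken as the reference. Against them, most measured matricellular genes were higher in Esm1/Selp-positive pIVCL barcodes, though not their summed level, while vasoactive genes were mixed. Of 12 measured IGF-binding and matricellular genes 7 were at least 2-fold higher and none lower (median log2 ratio 1.09, against -0.02 over all genes). The list summed to 4876 against 5278 CPM. In the other pIVCL barcodes 4 of 11 were at least 2-fold higher and 1 lower (median 0.71). Of 14 measured vasoactive genes 2 were at least 2-fold higher (Rgs2, Edn1) and 2 lower (Slco2a1, Hpgd), at a median of -0.30, and the list summed to 2432 against 2842 CPM. Among 10789 genes with at least 30 UMIs, 182 were at least 2-fold higher (1.69%) and 137 at least 2-fold lower (1.27%), on a log2 ratio with 20 CPM added to both sides. The other pIVCL barcodes against the same Control barcodes gave 199 higher (1.86%) and 154 lower (1.44%) of 10684 genes. These comparisons share their Control barcodes, so values are given side by side.

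The highest genes included Ctgf, a secreted matricellular target of YAP/TAZ signalling, at 352 CPM in Esm1/Selp-positive pIVCL barcodes, 138 in the other pIVCL barcodes, 66.8 in Esm1/Selp-positive Control barcodes and 8.49 in the other Control barcodes (log2 ratio to the last group 3.71). Rgs2, a brake on vasoconstrictor receptors, stood at 457, 196, 66.8 and 20.5 CPM in the same order (3.56). Odc1, the first enzyme of polyamine synthesis, stood at 428, 120, 62.7 and 30.4 CPM (3.15). These genes were highest in the Esm1/Selp-positive pIVCL barcodes, with the other pIVCL barcodes second. The vasoconstrictor peptide gene Edn1 had another order, at 193, 140, 347 and 6.71 CPM, with the Esm1/Selp-positive Control barcodes on top. That top value rests on few barcodes. The 19 Control barcodes with Selp alone held 82 Edn1 UMIs in 9 barcodes, 36 of them in 1 barcode.

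Lyve1 was 6.8 times its level in the other Control barcodes (log2 ratio 2.71), beside 1.99 for the other pIVCL barcodes. The subunits Kcnj8 and Abcc9 of the vascular ATP-sensitive potassium channel had log2 ratios of 2.57 and 2.60, beside 1.17 and 1.56. The matricellular gene Cyr61 gave 2.73 beside 2.03. Mup20, a major urinary protein made by hepatocytes, was also among the highest at 2.78, but was higher still in the other pIVCL barcodes at 3.70, and 58.5% of its UMIs in the Esm1/Selp-positive barcodes came from 1 barcode.

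The lowest genes were low in both pIVCL groups. Cyp26b1, which breaks down retinoic acid, stood at 8.91 CPM in Esm1/Selp-positive and 15.9 in other pIVCL barcodes, against 455 and 320 CPM in the same groups of Control. The prostaglandin transporter Slco2a1 stood at 29.97 and 78.3 against 359 and 397 CPM, and the prostaglandin-degrading enzyme Hpgd at 29.2 and 44.3 against 313 and 364 CPM. Col13a1, a transmembrane collagen, stood at 13.8 and 29.5 against 234 and 279 CPM. For all 4 genes the libraries separated, whichever Esm1/Selp group was taken. Wnt2, the central-vein-side Wnt ligand, was also among the 10 lowest (log2 ratio -2.21, beside -1.92 for the other pIVCL barcodes).

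By function, leukocyte recruitment genes were higher in part. Of 12 measured leukocyte adhesion genes 4 were at least 2-fold higher and 1 lower than in the other Control barcodes (median log2 ratio 0.50). The higher ones included Vcam1 (550 against 92.8 CPM), Icam1 (395 against 62.7 CPM), both ligands of leukocyte integrins, and E-selectin, Sele (71.3 against 1.37 CPM). In the other pIVCL barcodes 3 of 12 were at least 2-fold higher. Of 17 measured NF-kB feedback and cytokine genes 6 were at least 2-fold higher (median 0.35), among them the feedback inhibitors Tnfaip3 (2.06) and Nfkbia (1.20) and the monocyte chemokine Ccl2 (2.13). In the other pIVCL barcodes 1 of 15 was.

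Interferon-gamma response genes were higher at 3 of 19 (median 0.39), namely the CXCR3 ligands Cxcl9 (1342 against 238 CPM) and Cxcl10 (1741 against 450 CPM) and the transcription factor Irf8 (318 against 64.6 CPM). In the other pIVCL barcodes 2 of 19 were, Cxcl9 and Cxcl10, at log2 ratios of 1.51 and 1.22 (list median 0.09). None of 16 type I interferon response genes was past 2-fold in either direction (median 0.12). Of 19 tip cell and angiopoietin genes 7 were at least 2-fold higher and 1 lower (median 0.39). They included Angpt2, an antagonist of the Tie2 receptor (208 against 19.9 CPM), the lymphangiogenic factor Vegfc (97.2 against 11.5 CPM) and the pericyte attractant Pdgfb (91.5 against 11.2 CPM). Lyve1 was also among the 7 and is counted in the sinusoidal identity list too. The VEGF co-receptor Nrp1 was the lower one (759 against 1556 CPM). In the other pIVCL barcodes 4 of 18 tip cell and angiopoietin genes were at least 2-fold higher (Lyve1, Vegfc, Pdgfb and Angpt2) and 2 lower (median 0.006).

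Sinusoidal identity genes were mixed, with 2 of 17 at least 2-fold higher (Lyve1, Cd36) and 2 lower (the guidance receptor Plxnc1 and the trafficking gene Ehd3), at a median of -0.34. In the other pIVCL barcodes 1 was higher and 7 lower (median -0.68). Among the gate genes, Stab2 stood at 0.627 times and Dnase1l3 at 0.285 times its level in the other Control barcodes. Immediate-early and heat shock genes that dissociation can induce were higher too: 11 of 18 were at least 2-fold higher (median 1.18), beside 1 of 18 in the other pIVCL barcodes (median 0.56). Their part in the results above was not tested.

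Within the pIVCL library, the difference between Esm1/Selp-positive and other barcodes was small across the transcriptome and dominated on the lower side by hepatocyte RNA. Of 8098 genes, 42 were at least 2-fold higher (0.519%) and 289 lower (3.57%), and all 12 lowest named genes were hepatocyte transcripts such as Cyp4a10 (21.9 against 166 CPM) and Hpx (330 against 1470 CPM). Barcodes with at least 2% of UMIs from the hepatocyte list were 26 of 269 Esm1/Selp-positive barcodes (9.67%) and 75 of 224 others (33.5%). Without them, 22 genes were higher and 11 lower, and the median over all genes moved from 0.10 to -0.01.

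**Figure D3:**
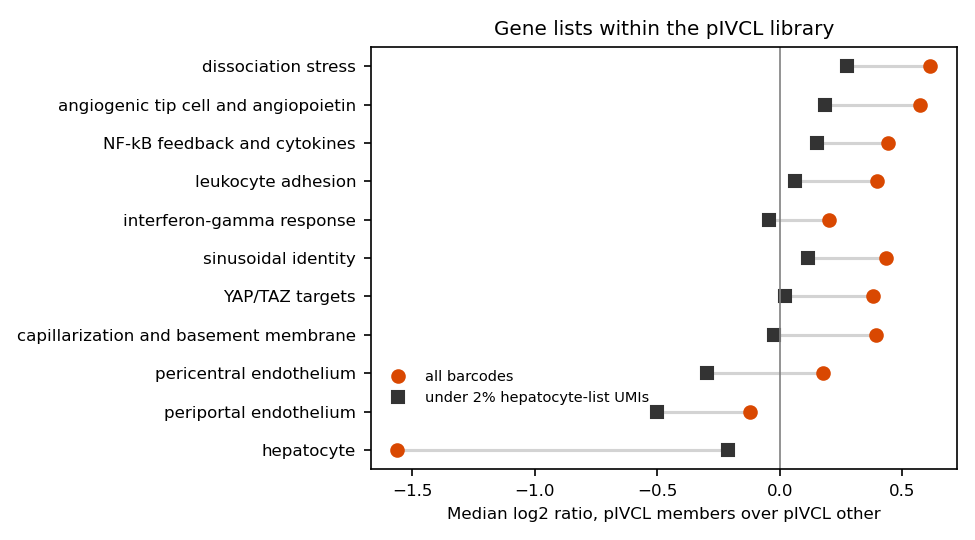
Median log2 ratio of Esm1/Selp-positive (members) over other pIVCL barcodes for 11 gene lists, with circles for all barcodes and squares for barcodes with under 2% of UMIs from hepatocyte genes. The sinusoidal identity list sits at 0.43 with all barcodes and 0.11 without the hepatocyte-rich ones, and the hepatocyte list goes from -1.56 to -0.21.

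Some single genes were at least 2-fold higher in Esm1/Selp-positive pIVCL barcodes with and without the hepatocyte-rich barcodes. They included the channel genes Kcne3, Kcnj8 and Kcnj2, and Odc1, Angpt2, Ccl2 and Thbs1. With all barcodes, 1 of 7 measured polyamine genes and 1 of 17 tip cell and angiopoietin genes were at least 2-fold higher. Of 10 IGF-binding and matricellular genes 3 were at least 2-fold higher and 2 lower (Igfbp5, Igfbp2). Kcne3, a potassium channel subunit, stood at 100.4 CPM (83.5 to 120) against 14.8 CPM in the other pIVCL barcodes (7.86 to 25.2), with a UMI in 64 of 269 and 10 of 224 barcodes. Its log2 ratio was 1.79, and 1.56 without the hepatocyte-rich barcodes. Kcne3 was at 0.685 CPM in the other Control barcodes (5 UMIs) and had no UMI in the 25 Esm1/Selp-positive Control barcodes, where 3 UMIs would be 12.5 CPM.

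Odc1 was 3.55 times its level in the other pIVCL barcodes (2.88 to 4.42), Angpt2 3.16 times (2.37 to 4.28) and Kcnj8 3.23 times (2.36 to 4.5). The inward rectifier channel gene Kcnj2 was 6.62 times (3.04 to 17.1), on 65 against 7 UMIs. Ccl2 was 4.73 times (2.78 to 8.57), and thrombospondin 1, Thbs1, 5.71 times (2.73 to 13.8). Without the hepatocyte-rich barcodes these 6 genes had log2 ratios of 1.42, 1.26, 1.16, 1.40, 1.19 and 1.06. Each interval lay above 1, but the genes were named by the size of their ratios in these same data, so this adds no support. The intervals leave out the spread between barcodes. No single barcode held more than 12.5% of the UMIs of any of the 6. After thinning, Odc1 was seen in 25.4% of Esm1/Selp-positive and 11.9% of other pIVCL barcodes, and Angpt2 in 18.7% and 6.93%.

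Other genes were past 2-fold with all barcodes and short of it without the hepatocyte-rich ones. Ctgf went from 1.23 to 0.88, the transcription factors Irf8 from 1.24 to 0.83 and Fosl2 from 1.16 to 0.79, Rgs2 from 1.14 to 0.66 and Bmp2, which controls hepcidin in hepatocytes, from 1.11 to 0.68. All stayed higher in the Esm1/Selp-positive barcodes. Lyve1 went from 0.72 to 0.27 and Cxcl9 from 0.89 to 0.56. Igfbp3, an IGF-binding protein, gave 1.36 and 1.18, but 28.5% of its UMIs in the Esm1/Selp-positive barcodes came from 1 barcode and its value was 0.13 without the 5% of barcodes with most UMIs. The proliferation genes Mki67 (52 UMIs in 12 Esm1/Selp-positive barcodes) and Stmn1 (127 UMIs in 28) were likewise carried by few barcodes, and Stmn1 stood at 0.06 without the 5%.

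Over all genes, 62.3% were higher in the Esm1/Selp-positive pIVCL barcodes (5048 of 8098, median 0.10), and 47.9% without the hepatocyte-rich barcodes (3492 of 7297, median -0.01). As lists, all 18 dissociation stress genes were higher in the Esm1/Selp-positive pIVCL barcodes (median 0.61, 2 past 2-fold), and 17 of 18 without the hepatocyte-rich barcodes (median 0.28). The tip cell list had 15 of 17 higher (median 0.57) and then 13 of 17 (0.19). Lyve1 counts in both the tip cell and the sinusoidal identity list. The NF-kB list had 14 of 16 higher (0.44) and then 8 of 15 (0.15). The sinusoidal identity list had 17 of 17 higher (0.43) and then 10 of 17 (0.11), and the adhesion list 10 of 12 (0.40) and then 8 of 12 (0.06). Without the hepatocyte-rich barcodes the NF-kB count lay near the share over all genes. The sinusoidal identity and adhesion counts lay above it, but on 17 and 12 genes with medians of 0.11 and 0.06. Nothing is read from these 3 lists. At most 3 genes of any of these lists were past 2-fold in this contrast.

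Lists of other endothelial types were mixed. Of 10 measured periportal genes 4 were higher with all barcodes and 1 without the hepatocyte-rich ones (medians -0.12 and -0.50), of 10 large-vessel genes 6 and then 3 (0.20 and -0.14), and of 3 lymphatic genes none in either case. With all barcodes the genes at least 2-fold lower in these lists were Gja4, Nts and Mmrn1. Gja4, the arterial gap junction gene connexin 37, stood at 21.1 CPM in Esm1/Selp-positive and 87.4 CPM in other pIVCL barcodes (log2 ratio -1.39, and -1.89 without the hepatocyte-rich barcodes). Igfbp5 stood at 64.8 and 212 CPM (-1.45 and -1.74). The ephrin ligand Efnb1 gave -0.85 and -1.28, the junction protein Jam2 -0.76 and -1.23, and Mecom, a transcription factor of arterial endothelium, -0.70 and -1.10. The lymphatic genes Nts and Mmrn1 gave -1.09 and -1.06, on 3 and 6 of the other barcodes. Dll4, a Notch ligand that belongs to both the periportal and the tip cell list, was higher instead, at 235 against 160 CPM. Its difference was smaller than that of Gja4, with a log2 ratio of 0.50, and 0.12 to 0.61 over the alternative settings.

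Levels were also described by the number of Esm1 and Selp UMIs, which the rule used, for genes already chosen for their difference within pIVCL. From barcodes with 0 UMIs of the pair through those with 1, 2 to 3, 4 to 7 and 8 or more, Angpt2 stood at 59.6, 75.7, 131, 216 and 311 CPM. Kcnj8 stood at 48.4, 67.0, 113, 189 and 267 CPM, and Odc1 at 136, 96.1, 254, 497 and 599 CPM. Gja4 ran the other way at 108, 55.3, 30.3, 14.9 and 14.8 CPM. Odc1 was thus lower at 1 UMI than at 0, and other genes had no steady order: Igfbp3 stood at 37.2, 66.95, 184, 74.6 and 213.5 CPM, and the neutrophil chemokine Cxcl2 at 9.31, 11.6, 84.8, 19.9 and 20.8 CPM. The median depth rose over these bins from 2623 to 4082 UMIs. The hepatocyte list ran from 44285 to 8123 CPM and the dissociation stress list from 9538 to 17323 CPM over the same bins, and the part of these and of depth was not tested. The order is a description within 1 library, and the threshold at 2 UMIs cuts a graded series.

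**Figure D4:**
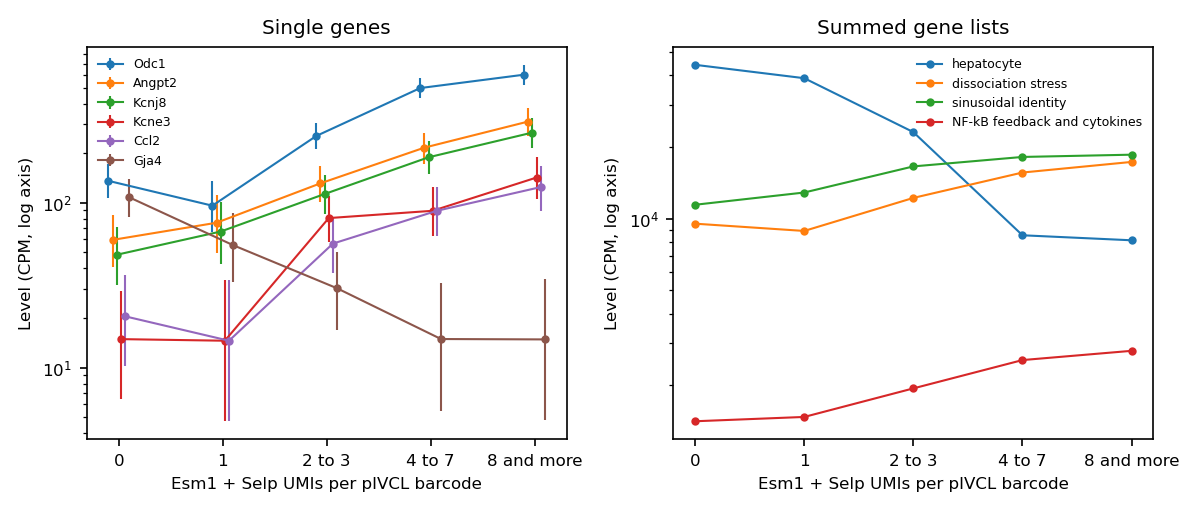
Levels in pIVCL sinusoidal barcodes (CPM, log axes) by their number of Esm1 and Selp UMIs, with single genes and exact 95% Poisson intervals on the left and summed gene lists on the right. Angpt2 runs from 59.6 to 311 CPM from the first to the last bin while Gja4 runs from 108 to 14.8 CPM.

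Esm1/Selp-positive barcodes of Control carried high levels of central-vein genes and of some large-vessel genes. Rspo3 stood at 2820 CPM in them (2611 to 3041) against 59.8 CPM in the other Control barcodes, and at 84.2 CPM in the Esm1/Selp-positive and 67.0 CPM in the other pIVCL barcodes. Of 12 measured pericentral genes 6 were at least 2-fold higher than in the other Control barcodes and none lower (median 1.06), beside 0.931% higher and 2.3% lower of 10521 genes (median -0.01). Of 10 measured large-vessel genes 4 were at least 2-fold higher (Vwf, Fbln2, Cd9 and Bgn) and none 2-fold lower (median 0.40). The large-vessel list summed to 3196 against 2072 CPM. Set against the 25 Control barcodes, Esm1/Selp-positive pIVCL barcodes had 345 genes at least 2-fold higher (4.97%) and 198 lower (2.85%) of 6936. Among them, 9 of 11 pericentral genes were lower and 1, Cd36, was higher (median -1.85, against 0.01 over all genes). Lyve1 was higher by 4.12 on the log2 scale. The Control group holds 239402 UMIs in all, which limits these values.

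The central-vein genes sat in the 19 Control barcodes with Selp alone. Rspo3 was seen in 18 of 19, Wnt9b in 15, and Wnt2 and the T-cadherin gene Cdh13 in 19, at 3536, 215, 749 and 639 CPM. The same 19 barcodes held Vwf in 10, Fbln2 in 7 and Bmp4 in 9, against 15, 7 and 6 of the 1075 other Control barcodes. Whether these 19 are sinusoidal or large-vessel cells was not tested. The 6 with Esm1 alone held no Rspo3, Wnt9b, Vwf, Fbln2 or Bmp4 UMI, and all 6 held Lyve1 and Cxcl9. With 6 barcodes, a share of 0 has an upper bound of 45.9%. The other Control barcodes held Rspo3 in 59 of 1075 (5.49%).

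**Figure D5:**
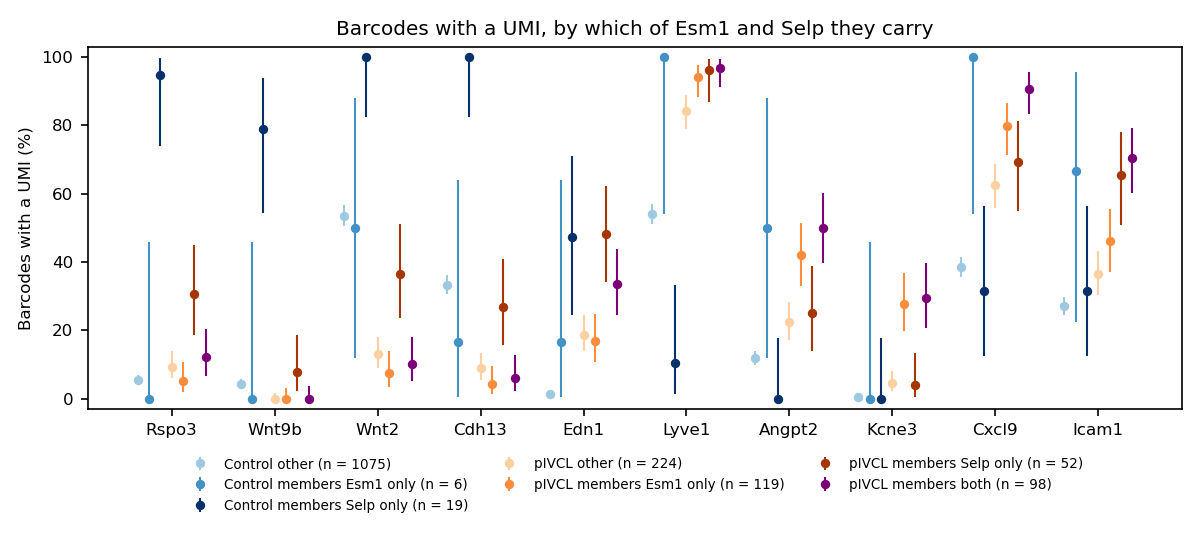
Share of barcodes with at least 1 UMI (%, vertical axis) of 10 genes, for barcodes with Esm1 only, Selp only, both or fewer than 2 UMIs of the pair in each library, with exact 95% binomial intervals. Control barcodes with Selp alone held Rspo3 in 18 of 19, and Lyve1 was seen in at least 84.4% of every pIVCL group. The shares are not thinned, and Control barcodes are deeper.

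In pIVCL, barcodes with Selp alone also held more central-vein RNA than those with Esm1, but Lyve1 and Cxcl9 did not divide as in Control, where 2 and 6 of the 19 Selp-only barcodes held them. The difference between libraries was not tested. Lyve1 was in 50 of 52 Selp-only and 112 of 119 Esm1-only pIVCL barcodes, and Cxcl9 in 36 and 95. Barcodes with Selp alone held Rspo3 at 273 CPM (16 of 52 barcodes), against 19.3 CPM with Esm1 alone (6 of 119) and 29.6 CPM with both (12 of 98). Wnt2 stood at 118, 19.3 and 21.1 CPM in this order. Edn1 stood at 364, 112 and 165 CPM, the elastic fibre gene Fbln2 at 371, 62.3 and 65.6 CPM, and Bmp4 at 159, 15.0 and 16.9 CPM. The Selp-only barcodes were the high ones for all 5 genes. They also held more hepatocyte RNA, at 29905 CPM against 10698 and 7974 CPM, whose part was not tested.

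Barcodes with Esm1, alone or with Selp, held more RNA of some angiogenic and channel genes. Angpt2 stood at 238 CPM with Esm1 alone and 262 CPM with both, against 74.3 CPM with Selp alone. Kcne3 stood at 138 and 121 against 10.1 CPM, Kcnj8 at 187 and 243 against 67.5 CPM, and the VEGF receptor gene Kdr at 2227 and 2075 against 1377 CPM. Icam1 followed Selp instead, at 456 CPM with Selp alone and 548 CPM with both against 202 CPM with Esm1 alone. Cxcl10 and Odc1 were highest with both, at 2413 and 569 CPM, as was the stress factor Atf3 at 298 CPM. Lyve1 did not separate the groups, with a UMI in 112 of 119, 50 of 52 and 95 of 98 barcodes.

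Position along the lobule depended on 2 genes. When each barcode was scored by its UMIs of 12 pericentral against 12 periportal genes, 86.3% of Esm1/Selp-positive pIVCL barcodes leaned pericentral. Without Fabp4, a fatty acid carrier, and the fatty acid receptor Cd36, 17.1% did, beside 16.1% of the other pIVCL barcodes. Of the Control barcodes that were Esm1/Selp-positive, 84% leaned pericentral with both genes and 80% without. Fabp4 was high in both pIVCL groups, at 3477 CPM in Esm1/Selp-positive and 2837 CPM in other barcodes, against 592 CPM in the other Control barcodes. The score is a range of counts, and 37 of the 269 barcodes lay within 1 UMI of an even score once the pair was removed.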

How the data were processed

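The authors deposited a table of UMI counts per gene and barcode for each library, made with Cell Ranger 3.0.2 and genome build mm10, per the submitters' processing notes. No source here names the annotation release. Counts were used as deposited, and their smallest barcode total was 500. Barcodes were kept with 200 or more genes and no more than 25% mitochondrial UMIs, a limit that removed 1590 pIVCL and 848 Control barcodes. No doublet caller was run, and a setting without the 5% of sinusoidal barcodes with most UMIs was tried in its place. UMIs were summed per group and scaled to CPM. Log2 ratios had 20 CPM added to both sides, which understates low genes, and used genes with at least 30 UMIs over both groups. Levels carry exact Poisson, shares Clopper-Pearson and ratios conditional exact binomial intervals at 95%. Coordinates come from GENCODE M21 (GRCm38), which held 31011 of 31053 gene identifiers.

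The barcodes, the 35 gene lists (421 of 422 symbols found) and the markers were chosen with earlier results of these data known. Genes named are the gate genes, Lyve1, the 12 highest and 12 lowest within pIVCL, the 10 highest and 10 lowest against the other Control barcodes, and up to 4 per list. Genes had at least 50 CPM in the higher group for the rankings. Left out of them were gate genes, gene models, ribosomal and mitochondrial genes, and immunoglobulin and T cell receptor segments. Genes of the dissociation stress list and of the lists of other cells and endothelial types were left out too. So were genes at least 10 times higher in another cell class. Stress genes such as Atf3 could thus not enter the rankings. Any other gene was named after its values were seen. Calculations used pandas 2.3.3, scipy 1.17.1 and numpy 2.4.6 under Python 3.11.15, figures used matplotlib 3.10.9, and the method was tested on simulated data.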

Additional observations from a re-analysis of the deposited data

Results flagged for a closer look

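The contrast of Esm1/Selp-positive with other sinusoidal barcodes went opposite ways in the 2 libraries for 4 genes, each with both counting intervals on opposite sides of 1. Lyve1 was lower in Control (log2 ratio -1.41) and higher in pIVCL (0.72). Bmp2 gave -0.17 in Control and 1.11 in pIVCL. Gja4 gave 0.83 in Control and -1.39 in pIVCL, and the tetraspanin gene Cd9 gave 1.46 and -0.61. The difference between the libraries was not tested, since each holds 1 sample. The Control contrast rests on 25 barcodes, of which 19 held Selp alone. With Selp alone and Esm1 alone, Cd9 stood at 377 and 41.25 CPM in Control and at 138 and 49.4 CPM in pIVCL. Bmp2 stood at 1262 and 2578 CPM in Control and at 712 and 1314 CPM in pIVCL. These 2 genes thus had the same order in both libraries once split. Lyve1 did not, in 2 of 19 and all 6 Control barcodes and in 50 of 52 and 112 of 119 pIVCL barcodes. The part of this mix in the 4 signs was not tested.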

How the results depend on the processing

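The share of Esm1/Selp-positive barcodes was higher in pIVCL under all 11 alternatives run for it. It was 59.95% in pIVCL with at most 10% mitochondrial UMIs, 62.4% with at least 2000 UMIs per barcode and 62.0% with under 2% hepatocyte-list UMIs. A threshold of 3 UMIs gave 42.0% against 0.909% in Control, a threshold of 1 gave 69.8% against 5.18%, and thinning before the gates gave 45.8% against 1.06%.

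Counts of genes past 2-fold within pIVCL (42 higher, 289 lower) moved most: 21 and 13 with at most 10% mitochondrial UMIs, 16 and 12 without the 5% of barcodes with most UMIs, 22 and 11 with under 2% hepatocyte-list UMIs, 18 and 15 thinned, and 26 and 186 at a threshold of 3 UMIs. The lower count was 136 at a threshold of 1 UMI, 189 with no large-vessel UMIs, 92 with the mean of each barcode's CPM and 176 without barcodes holding a leukocyte or Kupffer list UMI. The higher count was 76 against barcodes with 0 UMIs of the pair. The cause of these moves was not tested. With 5 CPM added in place of 20 the higher and lower counts were 157 and 479 within pIVCL, 381 and 359 against other Control, 672 and 350 against Control Esm1/Selp-positive, and 442 and 413 for the other barcodes. With 100 CPM they were 7 and 70, 55 and 39, 71 and 61, and 56 and 40. Lower genes against other Control were 367 with no large-vessel UMIs and 246 thinned, and the other barcodes then had 108 higher genes with no large-vessel UMIs. At least 100 UMIs per gene left 185 higher and 104 lower against Control Esm1/Selp-positive barcodes.

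Some values changed sign. The largest move was that of the hepatocyte list median within pIVCL. It was -1.56 with all barcodes and 0.0369 with at most 10% mitochondrial UMIs, so the hepatocyte difference was not seen under that limit. With the same limit the other within-pIVCL values were -0.00488 (YAP/TAZ list median), -0.25 (Vcam1), -0.072 (Edn1) and -0.14 (Fabp4). With under 2% hepatocyte-list UMIs they were -0.045 (interferon-gamma list median), -0.16 (Vcam1), -0.037 (Edn1) and -0.13 (Fabp4). Edn1 gave -0.14 with no large-vessel UMIs, and -0.013 without the 5% of barcodes with most UMIs, where Fabp4 gave -0.13. Against Control Esm1/Selp-positive barcodes that last setting gave 0.23 for Stab2, 0.080 for Bmp2 and -0.20 for Fabp4. Rspo3 against other Control gave -0.44 when thinned.

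The settings with 0 UMIs of the pair, no leukocyte or Kupffer list UMI and under 2% hepatocyte-list UMIs were chosen after seeing the data. A threshold of 3, thinning, no large-vessel UMIs and no leukocyte or Kupffer list UMI left under 20 Esm1/Selp-positive Control barcodes, so no comparison with them was made there. No paired analysis was possible because each group holds 1 library. Depth limits the Control values, which rest on 25 barcodes.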
